A study of Mus musculus with 4 samples.

Results

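The genes described here encode the enzymes that make serine, pass its carbon through the folate and methionine cycles, and build, salvage and balance nucleotides. They were chosen as a fixed list of 41 gene symbols, all of which are among the 23284 gene rows of the count tables and all of which passed the filter on low counts, as did 13215 genes in all. The study concerns Msi2, which encodes Musashi-2, a protein that binds RNA and acts in blood stem cells, and its role in MLL leukemia. Leukemic cells with high c-Kit, the stem cell factor receptor of immature blood cells, were taken from 2 groups of C57BL/6 mice, and their RNA was sequenced. The tables hold 2 Msi2 -/- libraries, in which both alleles of Msi2 are lost, and 2 control libraries from Msi2 flox/flox mice, whose loxP-flanked alleles are intact. The design names 2 mice per group. The Cre driver, the timing of the deletion, the MLL fusion and the age of the mice are not stated in the sources at hand. Library names share a leading number within a group and differ between groups, and whatever this number stands for cannot be told apart from genotype.

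Serine is made from a glycolytic intermediate in a short cytosolic pathway, and serine hydroxymethyltransferases split it into glycine and a carbon unit carried on folate. Folate-bound carbon units are needed for the purine ring and for thymidylate, and in mitochondria the same chemistry releases formate. Dividing cells also depend on ribonucleotide reductase and on salvage kinases for the building blocks of DNA. In many cell types the transcription factors MYC and ATF4 raise genes of these pathways, ATF4 in the response to a shortage of amino acids.

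Reads assigned to genes numbered 87564774 and 78659396 in Msi2 -/- replicates 1 and 2, against 79845492 and 72273679 in control 1 and control 2. Counts of a member ran from 3275 to 58463 per library. Levels are given in CPM, read counts scaled to library size after TMM adjustment, which evens out differences in library composition. Msi2 had 0.0915 and 0.221 CPM in the Msi2 -/- libraries, against 34.6 and 48.9 CPM in the controls. Kit, the gene of the sorting marker, had 68.1 and 57.1 CPM in the Msi2 -/- libraries and 50.4 and 51.9 CPM in the controls (log2 fold change 0.29, SE 0.111, edgeR adjusted p = 0.396). Xist, the transcript of the inactive X chromosome, had 0.469 and 0.624 CPM in the Msi2 -/- libraries, against 1455 and 654 CPM in the controls. A set of 4 Y-linked genes summed to 224 and 242 CPM in the Msi2 -/- libraries, against 41.1 and 184 CPM in control 1 and control 2. Both controls thus carried Xist and Y-linked transcripts, in unequal amounts, while the Msi2 -/- libraries had almost no Xist, and sex and genotype cannot be told apart. Cells of a single mouse would not normally carry both signals, and whether a library holds cells of more than 1 animal, by pooling or from a transplant host, is not stated, so the libraries may not stand for single mice.

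Promoter letters are shown for genes whose levels moved together across the 4 libraries, as told below. Psat1, Shmt2 and Mthfd2 encode enzymes of serine synthesis and of mitochondrial folate metabolism. Each stretch is read on the strand of its gene from RefSeq on build GRCm38.p6, ends at or just before the start site, and holds no annotated exon. Capitals mark CCAAT on either strand, the letters bound by the factor NF-Y.
Psat1, chr19:15925060-15925159, minus strand: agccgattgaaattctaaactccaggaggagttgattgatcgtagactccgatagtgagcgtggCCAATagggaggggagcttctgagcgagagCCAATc
Shmt2, chr10:127522445-127522544, minus strand: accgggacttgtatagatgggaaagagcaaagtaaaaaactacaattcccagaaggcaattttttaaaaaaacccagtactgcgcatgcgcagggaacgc
Mthfd2, chr6:83317607-83317706, minus strand: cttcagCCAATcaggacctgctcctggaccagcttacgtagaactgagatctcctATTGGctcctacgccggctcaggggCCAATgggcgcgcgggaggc
Psat1 and Mthfd2 hold CCAAT there and Shmt2 does not. Psat1 has 2 promoter windows, and the window with CCAAT was chosen for display. Its match was thus set by that choice.

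Promoter windows of 300 bases, most of it upstream of the start site, were at hand for 39 of the 41 members, all but Pfas and Dhodh. CCAAT was found in 19 of these 39 members (48.7%), against 41.1% of 27025 genes with such windows. The E-box CACGTG, which MYC can bind, stood in 5 of 39 members (12.8%), against 8.09% of all genes. These were Paics, Atic, Impdh2, Tyms and Nme1, whose log2 fold changes were -0.15, 0.029, -0.034, 0.069 and 0.17 and so lay on both sides of 0. The Tyms E-box is shown in capitals, since Tyms makes thymidylate and is the member where folate and DNA synthesis meet.
Tyms, chr5:30073647-30073686, minus strand: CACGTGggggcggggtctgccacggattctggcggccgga
The letters TGATGNAA, part of the composite site that ATF4 shares with C/EBP factors, were found in 1 of 39 members, Prps1, against 4.51% of all genes. Searches covered both strands, and a match of letters is a description and not a binding site.

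No member passed an adjusted p of 0.05 in edgeR's quasi-likelihood test. Msi2 itself and Xist did not pass it either, at log2 fold changes of -8.07 and -10.9 and an adjusted p of 0.122 for both. With 2 libraries per group, a member that was not called can thus not be taken as unchanged. Among all genes tested 0% passed as higher and 0.00757% as lower in Msi2 -/- cells, and the smallest adjusted p of a member was 0.271. At an unadjusted p under 0.05, 3 members were higher (Aprt, Ahcy and Samhd1) and 3 lower (Psph, Shmt1 and Pfas), which is 7.32% each way against 6.69% higher and 6.17% lower among all genes. DESeq2 called Aprt higher and Psph lower, or 2.44% of the members each way, against 3.1% higher and 2.71% lower among all genes. The edgeR likelihood ratio test, a less strict form of the test, called 0 members, against 0.908% of all genes higher and 1.45% lower. These shares are close to those of all genes.

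Fold changes below are log2, Msi2 -/- minus control. The median over the 41 members was -0.056, against -0.002 over all genes tested and 0.02 over the 5102 genes expressed at least as highly as the lowest member. Of the members 25 (61.0%) lay below 0, against 50.3% of all genes and 44.0% of those 5102. The Msi2 -/- libraries both lay above both controls for 7 members (17.1%) and both below for 12 (29.3%), against 23.7% and 24.6% of all genes tested. Among those 5102 genes these shares were 31.4% above and 20.4% below, so that the members lay lower relative to that set than relative to all genes. The set has no upper limit and was not matched to the members in level. For the other 22 members the groups overlapped. The members' counts summed to 0.864% and 0.800% of all gene counts in Msi2 -/- replicates 1 and 2, against 0.854% and 0.969% in control 1 and control 2. In this summed share control 2 thus stood apart from the other libraries at the high end and Msi2 -/- replicate 2 at the low end. The controls differed most in the summed levels of serine synthesis (961 and 1399 CPM) and of the folate cycle (1176 and 1623 CPM).

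**Figure D1:**
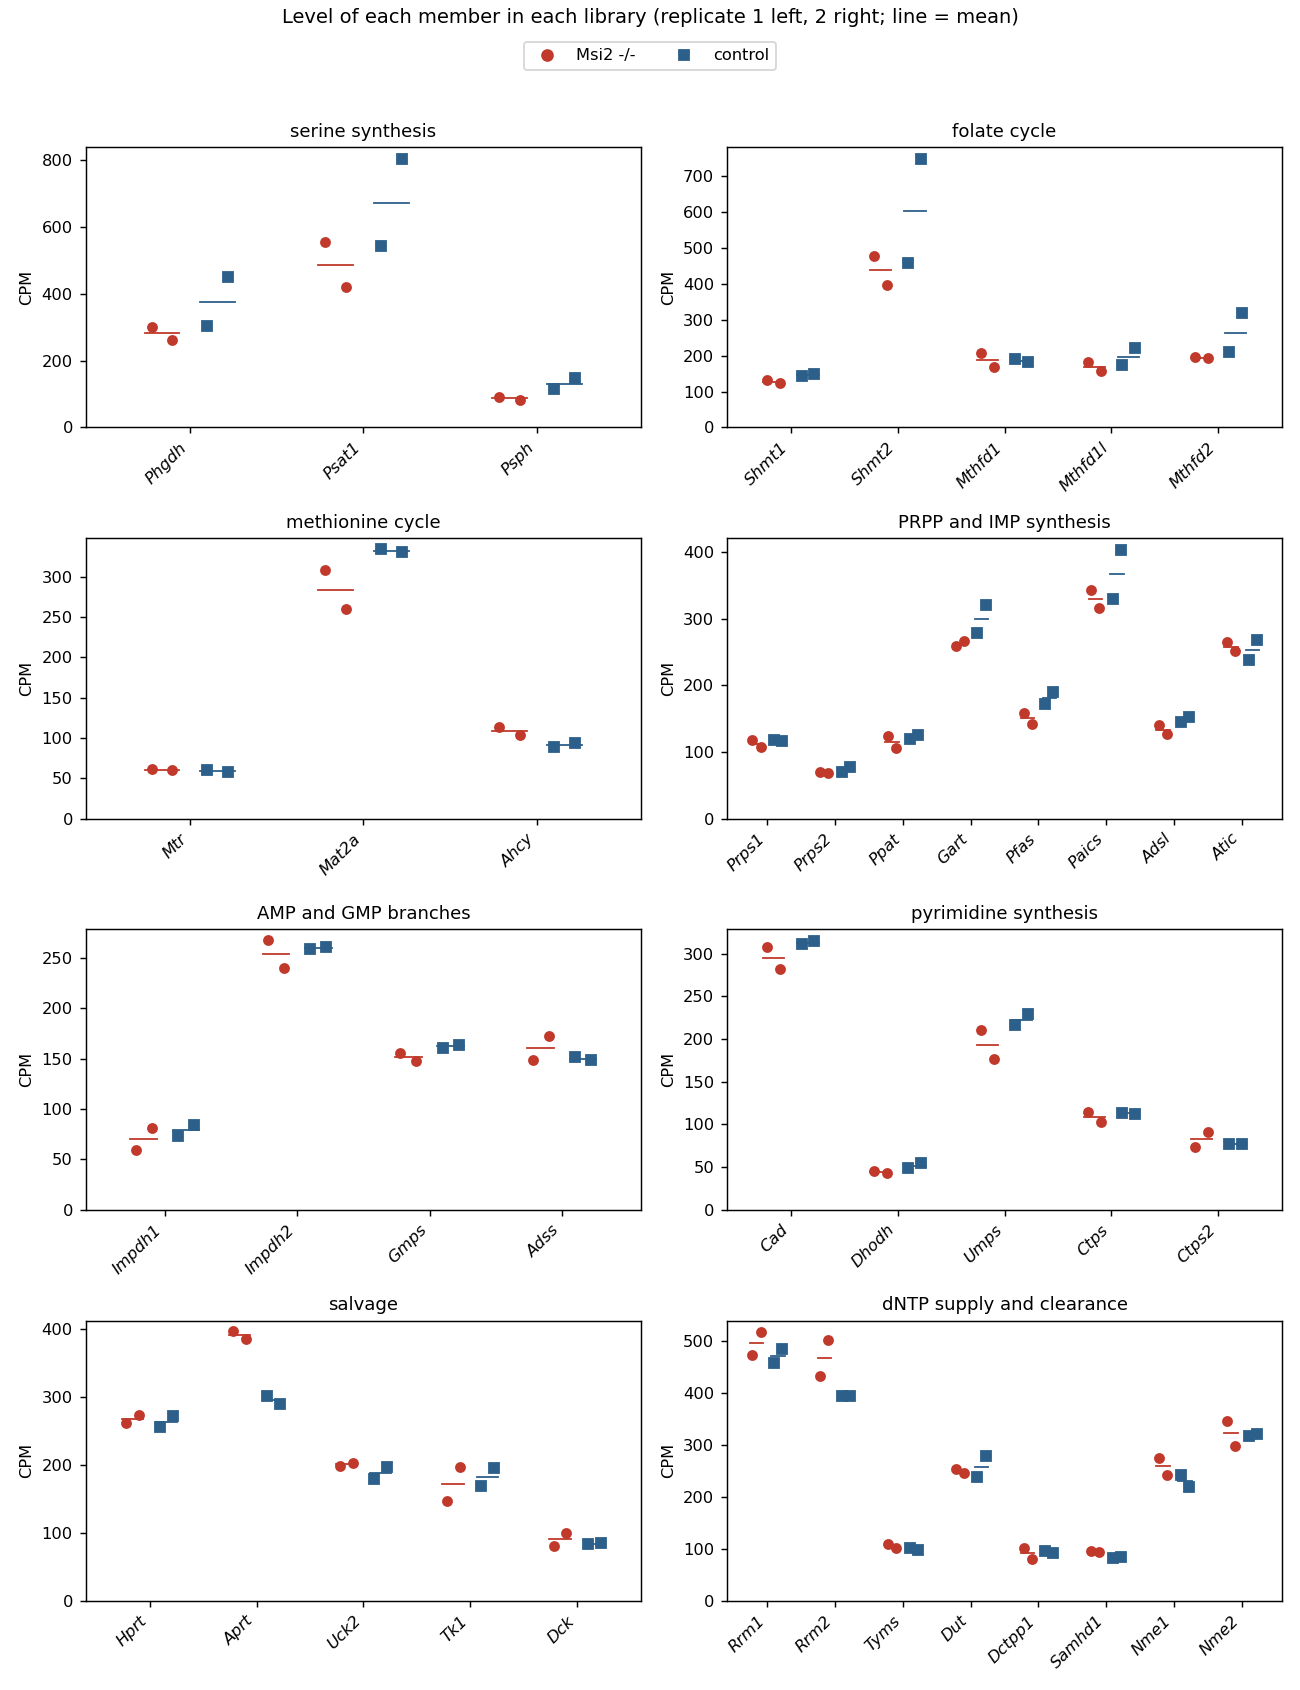
Level in CPM, on axes that start at 0, of each of the 41 members in each library, in panels by role. Red circles are the 2 Msi2 -/- libraries and blue squares the 2 controls, replicate 1 to the left of replicate 2, and short lines are group means. For Phgdh, Psat1, Shmt2 and Mthfd2 control 2 is far above the other 3 libraries, while Aprt is higher in both Msi2 -/- libraries than in both controls.

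The enzymes of serine synthesis had the lowest fold changes of the roles, with all 3 members below 0 and a median of -0.47. Their levels summed to 949 and 763 CPM in the Msi2 -/- libraries, against 961 and 1399 CPM in control 1 and control 2. Msi2 -/- replicate 1 and control 1 were thus nearly level in sum, and control 2 alone stood well above them. Without control 2 the median of the 3 genes was -0.15, and without control 1 it was -0.72.

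Psph, the phosphatase that releases free serine in the last step, had 92.3 and 81.5 CPM in the Msi2 -/- libraries, against 114 and 147 CPM in the controls. Both Msi2 -/- libraries lay below both controls (log2 fold change -0.59, SE 0.152, edgeR adjusted p = 0.333) and the adjusted p by DESeq2 was 0.0208. Its log2 fold change was -0.39 without control 2 and -0.76 without control 1. Phgdh, the dehydrogenase that commits carbon to the pathway, had 302 and 262 CPM in the Msi2 -/- libraries, against 304 and 449 CPM in the controls. Msi2 -/- replicate 1 and control 1 were nearly level, and the log2 fold change of -0.42 (SE 0.213, edgeR adjusted p = 0.47) was smaller than the gap of 0.56 between the controls. Psat1, the aminotransferase of the middle step, had 555 and 419 CPM in the Msi2 -/- libraries, against 543 and 802 CPM in the controls. The groups overlapped for Psat1 (log2 fold change -0.47, SE 0.244, edgeR adjusted p = 0.479).

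Genes of the folate cycle had a median of -0.22, with 4 of 5 members below 0. The mitochondrial enzymes Shmt2, Mthfd2 and Mthfd1l shared the pattern of the serine genes. Shmt2, the mitochondrial serine hydroxymethyltransferase, had 478 and 398 CPM in the Msi2 -/- libraries, against 459 and 749 CPM in the controls (log2 fold change -0.46, SE 0.264, edgeR adjusted p = 0.509). Mthfd2, a mitochondrial dehydrogenase and cyclohydrolase known for its high level in tumors, had 195 and 192 CPM in the Msi2 -/- libraries, against 210 and 319 CPM in the controls (log2 fold change -0.45, SE 0.214, edgeR adjusted p = 0.45). The log2 gap between control 2 and control 1 was 0.71 for Shmt2 and 0.60 for Mthfd2, larger than either fold change. Without control 2 the log2 fold change was -0.066 for Shmt2, -0.11 for Mthfd2 and -0.033 for Mthfd1l, the formate-releasing synthetase, against -0.77, -0.72 and -0.39 without control 1.

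The cytosolic enzymes of the cycle stood closer together. Shmt1, the cytosolic serine hydroxymethyltransferase, had 131 and 124 CPM in the Msi2 -/- libraries, against 144 and 150 CPM in the controls. Both Msi2 -/- libraries lay below both controls by a small margin (log2 fold change -0.20, SE 0.0697, edgeR adjusted p = 0.373). Mthfd1, the trifunctional cytosolic enzyme, had 207 and 169 CPM in the Msi2 -/- libraries, against 190 and 183 CPM in the controls (log2 fold change 0.011, SE 0.119). Its controls lay between the Msi2 -/- libraries.

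Across the 8 members of serine synthesis and the folate cycle, control 2 was the highest library for 7 and Msi2 -/- replicate 2 the lowest for 8. Of all genes tested, control 2 was the highest library for 27.1% and Msi2 -/- replicate 2 the lowest for 26.7%. Among the other 33 members, control 2 was highest for 13 and Msi2 -/- replicate 2 lowest for 15. These counts describe the libraries and carry no test.

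**Figure D2:**
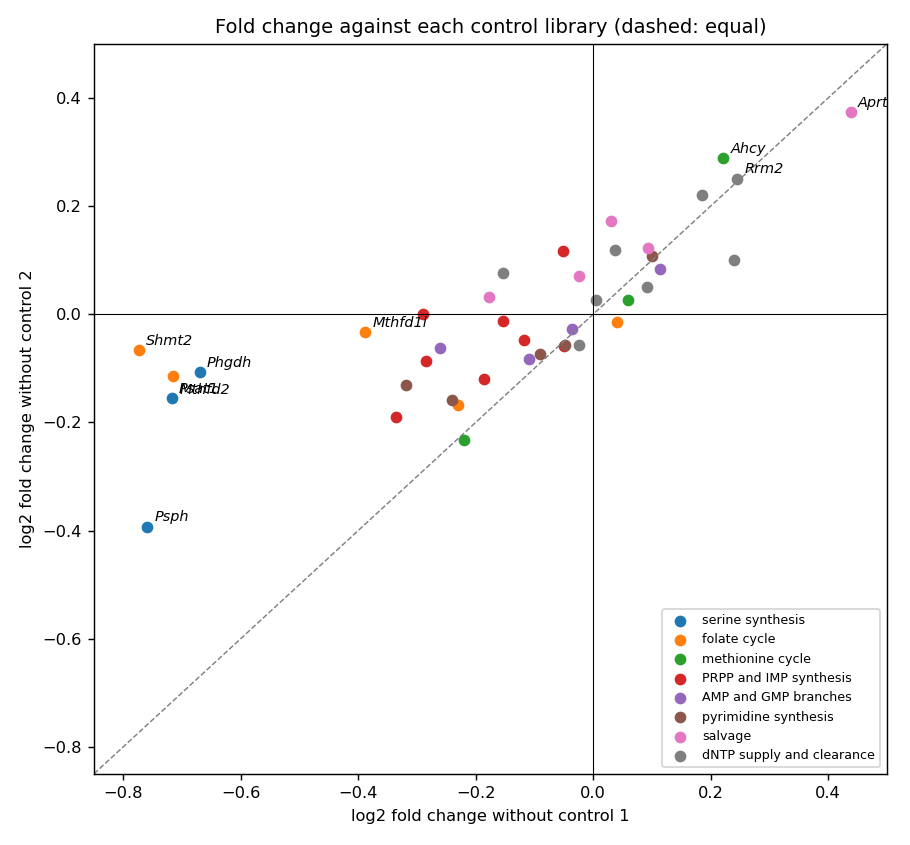
Log2 fold change of each member when control 1 is left out (horizontal) and when control 2 is left out (vertical), colored by role, with the dashed line where both are equal. Shmt2, Mthfd2, Phgdh and Psat1 lie far from the line, at -0.77 to -0.67 without control 1 and -0.15 to -0.066 without control 2, while Aprt lies near it at 0.44 and 0.37.

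Atf4 was highest in control 2 as well, but its Msi2 -/- libraries were nearly level and both lay below control 1. It had 499 and 502 CPM in the Msi2 -/- libraries, against 541 and 706 CPM in the controls (log2 fold change -0.32, SE 0.145, edgeR adjusted p = 0.436). A list of 12 genes known to respond to amino acid shortage, chosen after the members' values were seen, had 11 genes below 0 and a median of -0.73. Asns, the asparagine synthetase gene of that list, had 184 and 186 CPM in the Msi2 -/- libraries, against 221 and 449 CPM in the controls (log2 fold change -0.86, SE 0.352, edgeR adjusted p = 0.412). The summed level of the list was 1004 and 924 CPM in the Msi2 -/- libraries, against 982 and 1780 CPM in control 1 and control 2, so that control 2 stood apart here too. The part of this difference between libraries in the serine and folate values was not tested.

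**Figure D3:**
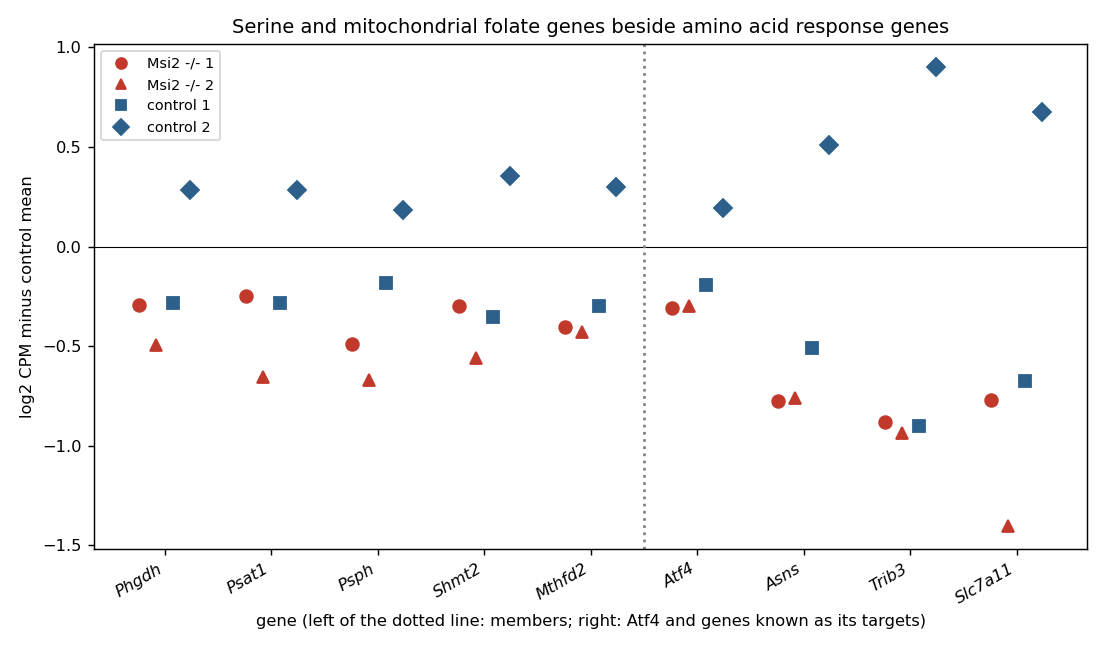
Log2 CPM minus the control mean of log2 CPM for 5 serine and mitochondrial folate members, left of the dotted line, and for Atf4, Asns, Trib3 and Slc7a11, right of it. Red marks are the Msi2 -/- libraries and blue marks the controls. For each gene control 2 lies above the mean, so that control 1 must lie below it, and both Msi2 -/- libraries lie below it as well. The genes shown were picked. Among those left out, Ddit4 had 28.9 CPM in Msi2 -/- replicate 2 against 25.2 CPM in control 2. Mthfd1, also left out, had 207 CPM in Msi2 -/- replicate 1 against 183 CPM in control 2.

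Myc, whose protein is known to raise many of the members, had 285 and 322 CPM in the Msi2 -/- libraries, against 407 and 489 CPM in the controls. Both Msi2 -/- libraries lay below both controls (log2 fold change -0.56, SE 0.125, edgeR adjusted p = 0.308) and the adjusted p by DESeq2 was 0.00399. Of the members 25 (61.0%) lay below 0, as given above, and the part of Myc in their values was not tested.

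The methionine cycle regenerates the methyl donor S-adenosylmethionine, and its 3 members differed in direction. Ahcy, which clears S-adenosylhomocysteine after methylation, had 113 and 104 CPM in the Msi2 -/- libraries, against 89.0 and 93.3 CPM in the controls (log2 fold change 0.25, SE 0.0772, edgeR adjusted p = 0.352). Mat2a, which makes S-adenosylmethionine, had 308 and 259 CPM in the Msi2 -/- libraries, against 334 and 331 CPM in the controls (log2 fold change -0.23, SE 0.104, edgeR adjusted p = 0.438). Ahcy was thus higher and Mat2a lower in both Msi2 -/- libraries, and the log2 fold change of Mat2a was -0.35 without Msi2 -/- replicate 1 and -0.11 without replicate 2. Mtr, the methionine synthase that takes its methyl group from folate, had 61.5 and 59.8 CPM in the Msi2 -/- libraries, against 59.6 and 58.3 CPM in the controls (log2 fold change 0.041, SE 0.0696, edgeR adjusted p = 0.829).

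Enzymes of the path to inosine monophosphate (IMP), the parent of all purines, lay slightly below 0 in 7 of 8 members, with a median of -0.12. Without control 2 the median was -0.053, and without control 1 it was -0.17. The pathway starts from phosphoribosyl pyrophosphate (PRPP). Pfas, which adds an amide nitrogen in the middle of the path, had 159 and 143 CPM in the Msi2 -/- libraries, against 172 and 191 CPM in the controls (log2 fold change -0.27, SE 0.0945, edgeR adjusted p = 0.38). Gart, a trifunctional enzyme that uses folate-bound carbon, had 259 and 266 CPM in the Msi2 -/- libraries, against 279 and 320 CPM in the controls (log2 fold change -0.19, SE 0.0916, edgeR adjusted p = 0.45). The log2 gap between its controls was 0.197, and its log2 fold change was -0.087 without control 2. Adsl, which releases fumarate, had 140 and 127 CPM in the Msi2 -/- libraries, against 145 and 152 CPM in the controls (log2 fold change -0.16, SE 0.0823, edgeR adjusted p = 0.482). These 3 of the 8 genes were lower without overlap, as were 24.6% of all genes tested and 20.4% of the 5102 genes given above. The groups overlapped for the other 5.

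Of those 5, Atic, which closes the purine ring, was the only one above 0 (log2 fold change 0.029, SE 0.0875). Paics was at -0.15 (SE 0.123), and its controls differed by 0.29. Ppat, the committed step, and the PRPP synthetases Prps1 and Prps2 were at -0.085, -0.056 and -0.087, with SEs of 0.104, 0.08 and 0.0806. Ppat and Paics lie head to head with overlapping starts in the RefSeq table, and reads in the overlap cannot be assigned to either without strand.

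Past IMP, the branches to AMP and GMP differed little between the groups, with a median of -0.066. Gmps, which makes GMP, had 155 and 148 CPM in the Msi2 -/- libraries, against 161 and 164 CPM in the controls (log2 fold change -0.098, SE 0.0654, edgeR adjusted p = 0.571). Adss, the adenylosuccinate synthetase, had 148 and 173 CPM in the Msi2 -/- libraries, against 152 and 148 CPM in the controls (log2 fold change 0.097, SE 0.0963, edgeR adjusted p = 0.7). Impdh1 had 58.8 and 81.1 CPM in the Msi2 -/- libraries, against 73.2 and 84.0 CPM in the controls (log2 fold change -0.17, SE 0.183, edgeR adjusted p = 0.725). Only Gmps showed no overlap among these 4 genes. Impdh2, the more abundant of the IMP dehydrogenases in CPM per kilobase of exon (82.5 in Msi2 -/- and 84.4 in control cells, against 21.2 and 23.9 for Impdh1), was at -0.034 (SE 0.0813).

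Pyrimidine synthesis had 4 of 5 members below 0 and a median of -0.084. Dhodh, the mitochondrial dehydrogenase of the pathway, had 45.4 and 42.6 CPM in the Msi2 -/- libraries, against 48.2 and 54.9 CPM in the controls (log2 fold change -0.23, SE 0.105, edgeR adjusted p = 0.438). Umps, which completes uridine monophosphate, had 210 and 176 CPM in the Msi2 -/- libraries, against 216 and 229 CPM in the controls (log2 fold change -0.20, SE 0.109, edgeR adjusted p = 0.488). Cad, the multifunctional enzyme of the opening steps, had 308 and 282 CPM in the Msi2 -/- libraries, against 311 and 315 CPM in the controls (log2 fold change -0.084, SE 0.0749, edgeR adjusted p = 0.668). All 3 genes were lower in both Msi2 -/- libraries than in both controls, for Cad by a narrow margin. Of all genes tested 24.6% were lower in this way, as were 20.4% of the 5102 genes given above. The CTP synthetases Ctps and Ctps2 were at -0.054 (SE 0.0802) and 0.10 (SE 0.123), with overlapping groups.

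**Figure D4:**
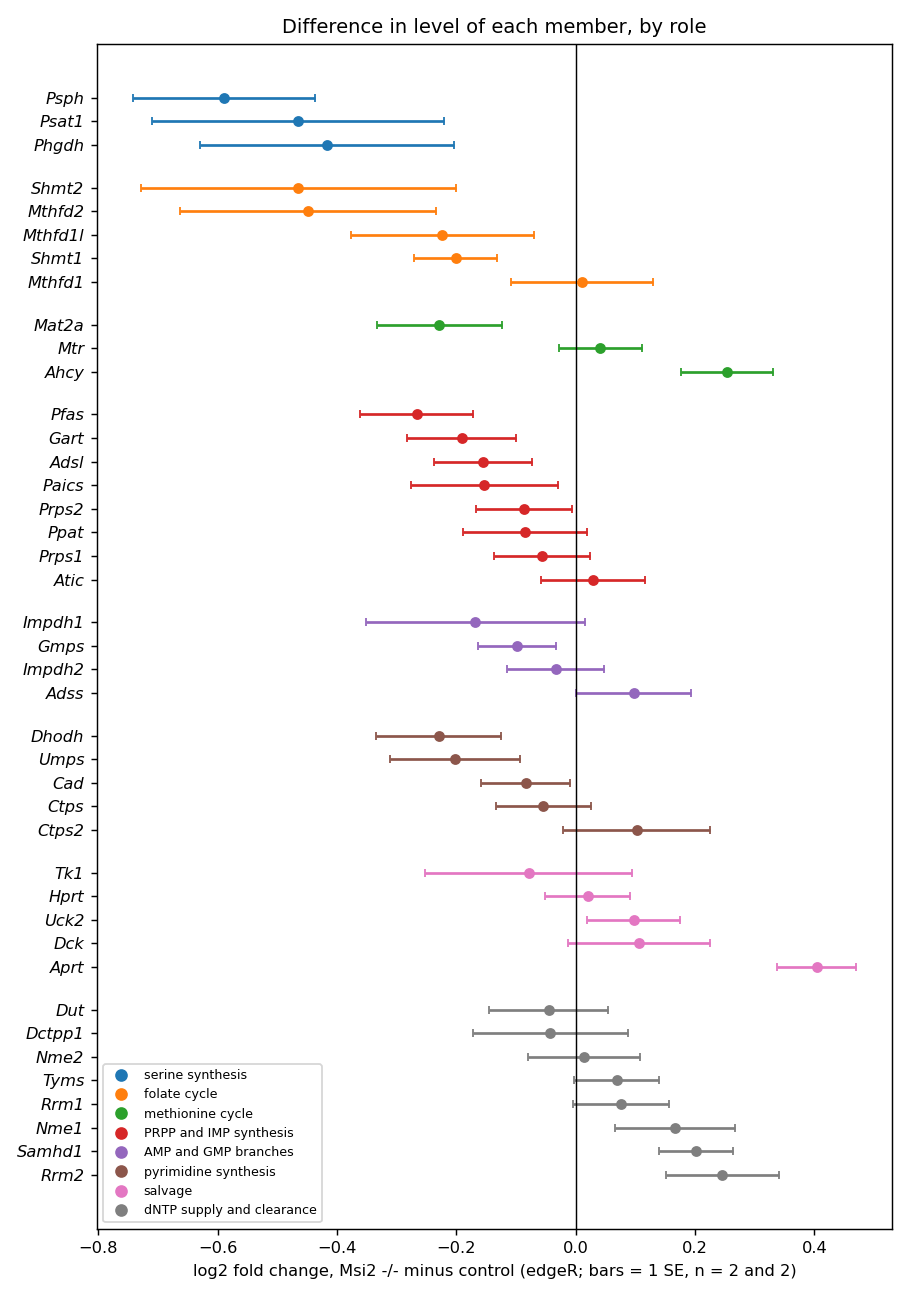
Log2 fold change of each member, Msi2 -/- minus control, by edgeR from 2 libraries each, with bars of 1 SE and colors by role. Serine synthesis lies from -0.59 to -0.42, most of purine and pyrimidine synthesis lies just below 0, and Aprt, Ahcy and Rrm2 lie highest at 0.40, 0.25 and 0.25.

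Salvage returns free bases and nucleosides to nucleotides and held the member with the highest fold change and the smallest p. Aprt, which rebuilds AMP from adenine, had 397 and 386 CPM in the Msi2 -/- libraries, against 302 and 289 CPM in the controls, or 391 ± 8.28 against 296 ± 9.24 CPM (SD, n = 2 each). The gap between groups was far wider than the gap within either. Its log2 fold change was 0.40 (SE 0.0664, edgeR adjusted p = 0.271), with an adjusted p of 8e-06 by DESeq2. With any 1 library left out it ran from 0.37 to 0.44.

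The other salvage genes stood closer to 0. Uck2, a uridine and cytidine kinase, had 199 and 203 CPM in the Msi2 -/- libraries, against 179 and 197 CPM in the controls (log2 fold change 0.097, SE 0.078, edgeR adjusted p = 0.631). Dck, the deoxycytidine kinase that also activates cytarabine, had 81.1 and 99.8 CPM in the Msi2 -/- libraries, against 83.2 and 84.9 CPM in the controls (log2 fold change 0.11, SE 0.119, edgeR adjusted p = 0.731). Tk1, the thymidine kinase of S phase, had 147 and 198 CPM in the Msi2 -/- libraries, against 169 and 195 CPM in the controls (log2 fold change -0.079, SE 0.173). For Dck and Tk1 the Msi2 -/- libraries lay on both sides of the controls. Hprt, the salvage enzyme for hypoxanthine and guanine, was at 0.020 (SE 0.0713).

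Genes that supply and clear deoxynucleotides lay above 0 in 6 of 8 members, with a median of 0.072. Rrm2, the small subunit of ribonucleotide reductase, had 432 and 501 CPM in the Msi2 -/- libraries, against 393 and 394 CPM in the controls (log2 fold change 0.25, SE 0.0946, edgeR adjusted p = 0.399). Samhd1, which degrades deoxynucleotides, had 96.3 and 94.3 CPM in the Msi2 -/- libraries, against 81.8 and 83.9 CPM in the controls (log2 fold change 0.20, SE 0.0619, edgeR adjusted p = 0.352). Nme1, a nucleoside diphosphate kinase, had 275 and 241.4 CPM in the Msi2 -/- libraries, against 241.3 and 219 CPM in the controls (log2 fold change 0.17, SE 0.1, edgeR adjusted p = 0.532). The groups did not overlap for Rrm2, Samhd1 and Nme1, for Nme1 by a narrow margin. Of all genes tested 23.7% were higher without overlap, as were 31.4% of the 5102 genes given above.

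The remaining members of that role overlapped between the groups. Rrm1, the large subunit of the reductase, was at 0.076 (SE 0.0801). Tyms was at 0.069 (SE 0.0712), Dut, which removes dUTP, at -0.045 (SE 0.0996), and Dctpp1, a dCTP pyrophosphatase, at -0.042 (SE 0.13). Nme2, a further nucleoside diphosphate kinase, was at 0.014 (SE 0.0942).

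**Figure D5:**
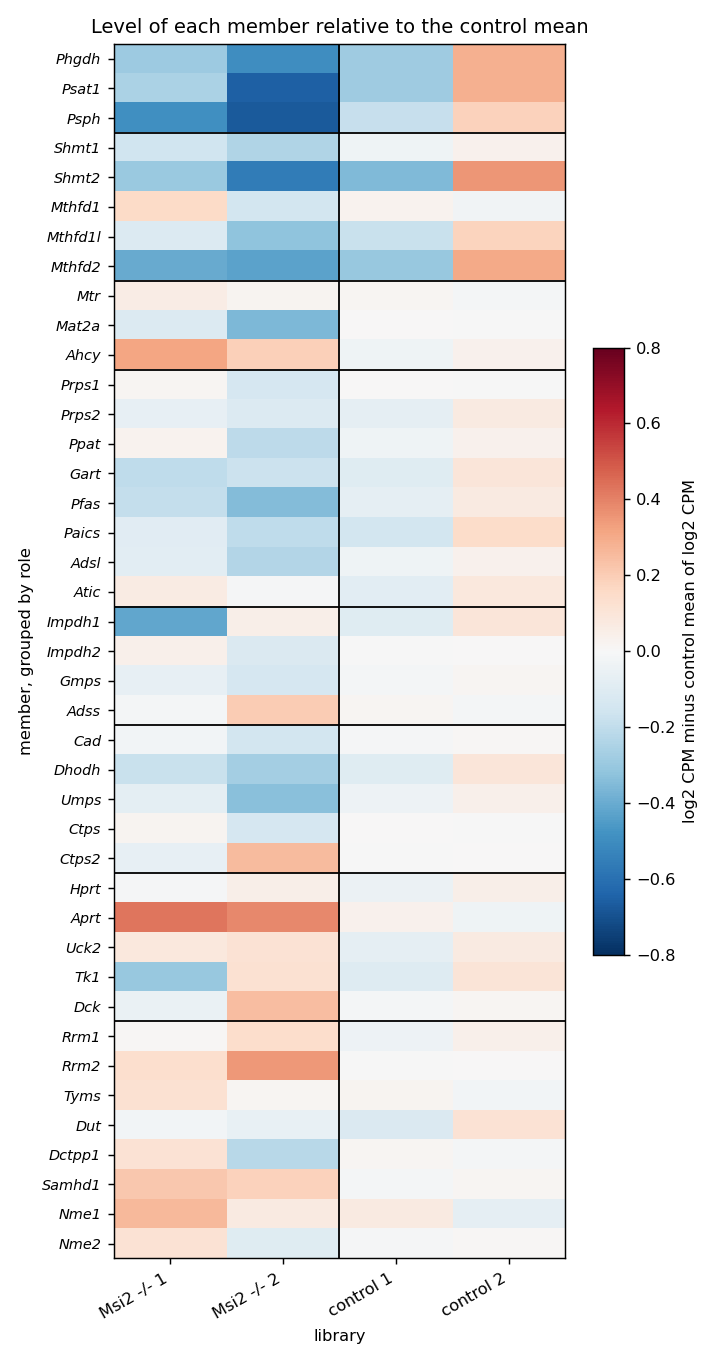
Log2 CPM of each member minus its control mean, in the 4 libraries, with members grouped by role between black lines. Msi2 -/- replicate 2 is blue and control 2 red for most serine and folate genes, while Aprt, Ahcy and Samhd1 are red in both Msi2 -/- libraries.

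The 4 members on the X chromosome were looked at beside the unequal Xist levels given above. Prps1 had 119 and 107 CPM in the Msi2 -/- libraries, against 118 and 117 CPM in the controls. Hprt had 263 and 273 CPM in the Msi2 -/- libraries, against 255 and 273 CPM in the controls. Prps2 and Ctps2 are given above. The groups overlapped for all 4.

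Levels between genes can be set side by side only per length, here as CPM per kilobase of the exons in GENCODE M21, whose build is not that of the counts. On that scale Nme2 was the highest member, at 275 in Msi2 -/- and 272 in control cells. Shmt2 stood at 141 in Msi2 -/- and 194 in control cells and Aprt at 242 and 183. Dhodh and Mtr were the lowest, at 6.95 and 7.11 in Msi2 -/- and 8.15 and 6.92 in control cells. Some levels are uncertain because near-identical copies exist. Of the stretches of 50 bases in the longest transcript, 77.0% for Ahcy, 73.9% for Impdh2, 63.1% for Phgdh and 54.5% for Nme2 were also found in transcripts of other annotated genes, mostly pseudogenes or, for Nme2, a transcript that reads through from Nme1. How such reads were counted is not stated in the sources at hand.

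The rest of the pathway was described with a list of 90 other genes of serine, folate, methionine and nucleotide metabolism, of which 89 are in the tables and 77 were tested. None passed edgeR's adjusted p of 0.05. At an unadjusted p under 0.05, 8 of the 77 were higher and 7 lower, against 6.69% and 6.17% of all genes. The median was -0.01. DESeq2 called Aldh1l1, Pnp, Pnp2 and Nt5c higher and Slc1a4, Ak4 and Dctd lower. Over all genes it called 3.1% higher and 2.71% lower. Among the list's serine and glycine genes 8 of 9 tested lay below 0, with a median of -0.34, against 50.3% of all genes below 0.

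Aldh1l1 had the smallest p of the other genes. It encodes a cytosolic enzyme that oxidizes formyl-folate to carbon dioxide, and had 17.2 and 9.20 CPM in the Msi2 -/- libraries, against 1.15 and 1.76 CPM in the controls (log2 fold change 3.18, SE 0.445, edgeR adjusted p = 0.271) and the adjusted p by DESeq2 was 5.78e-10. Both Msi2 -/- libraries lay far above both controls, although the level was low in all 4 libraries. Pnp, the purine nucleoside phosphorylase that frees the bases for salvage, had 172 and 197 CPM in the Msi2 -/- libraries, against 139 and 127 CPM in the controls (log2 fold change 0.47, SE 0.0991, edgeR adjusted p = 0.298) and the adjusted p by DESeq2 was 0.00406. Nt5c, a nucleotidase, and Cmpk1, the pyrimidine monophosphate kinase, were at 0.33 (SE 0.0756) and 0.22 (SE 0.0664).

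On the lower side Dctd, the deoxycytidylate deaminase, had 26.7 and 23.2 CPM in the Msi2 -/- libraries, against 33.7 and 40.2 CPM in the controls (log2 fold change -0.57, SE 0.145, edgeR adjusted p = 0.333) and the adjusted p by DESeq2 was 0.0266. Ak4, a mitochondrial adenylate kinase, was at -0.88 (SE 0.203), Nt5c2, a cytosolic nucleotidase of purines, at -0.27 (SE 0.0736), and Dld, a subunit of the glycine cleavage system and of dehydrogenase complexes, at -0.34 (SE 0.116). The groups did not overlap for these 8 genes, which were picked for their small p. Of all 77 genes tested from the list, 15 were higher and 20 lower without overlap. Among all genes tested these shares were 23.7% and 24.6%.

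Markers of other cells and stages were mixed in direction, and none passed edgeR's adjusted p of 0.05. Genes of late neutrophils summed to 1398 and 2225 CPM in the Msi2 -/- libraries, against 1025 and 678 CPM in the controls. Of the 9 of 10 tested, 6 lay above 0 and 3 below, with a median of 0.67, against 50.3% of all genes below 0. S100a8, S100a9, Ltf and Lcn2 were higher by DESeq2 (log2 fold changes 1.61, 1.42, 1.87 and 1.78) and Cxcr2 was lower (-1.63), while Mmp8 and Mmp9 were at -1.81 and -0.71 and the groups overlapped for Camp and Ngp. S100a8 alone had 537 and 938 CPM in the Msi2 -/- libraries, against 273 and 210 CPM in the controls.

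Of 8 myeloid progenitor markers 5 lay above 0 and 3 below, with a median of 0.22, and their sums were 10276 and 16635 CPM in the Msi2 -/- libraries, against 14633 and 14701 CPM in the controls. Mpo and Myb were lower by DESeq2, at -1.07 and -0.39, Ctsg was at -0.23, and Kit, Elane, Prtn3, Ms4a3 and Cd34 were at 0.29, 0.29, 0.14, 0.60 and 0.45. A list of 20 replication genes that holds no member summed to 4937 and 4775 CPM in the Msi2 -/- libraries, against 4684 and 5400 CPM in the controls, with 14 of 20 below 0 and a median of -0.063.

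Some markers of other lineages were present and others stood at 0. Cd3e, Cd3g and Cd2 of T cells, Ms4a1 and Pax5 of B cells, Hba-a1 and Slc4a1 of red cells and C1qc of macrophages had 0 counts in every library, which allows up to 0.0412 CPM. Emr1 of macrophages had 19.9 and 64.7 CPM in the Msi2 -/- libraries, against 28.7 and 42.9 CPM in the controls. Csf1r had 10.46 and 13.96 CPM in the Msi2 -/- libraries, against 4.32 and 6.39 CPM in the controls, and was higher by DESeq2 (adjusted p = 0.00933). Both of these macrophage genes were thus detected in every library. Of the 7 macrophage markers 4 were tested, with 3 above 0 and 1 below. The 1 below was Vcam1 (log2 fold change -1.75), with 1.01 and 0.494 CPM in the Msi2 -/- libraries, against 3.90 and 1.15 CPM in the controls. Mrc1 had 0.503 and 2.79 CPM in the Msi2 -/- libraries, against 1.05 and 0.563 CPM in the controls. C1qa and C1qb had 1 count each, in Msi2 -/- replicate 2. Cd79b of B cells had 20.4 and 18.5 CPM in the Msi2 -/- libraries, against 26.1 and 26.3 CPM in the controls, and Lck of T cells had 6.499 and 9.451 CPM in the Msi2 -/- libraries, against 8.955 and 9.947 CPM in the controls. The endothelial and blood cell gene Pecam1 had 24.6 and 166 CPM in the Msi2 -/- libraries, against 58.8 and 72.8 CPM in the controls. The part of these cells and of the cell cycle in the members' values was not tested, and in bulk RNA fewer cells of a type and less RNA per cell cannot be told apart.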

How the data were processed

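Gene counts of 4 libraries were used, 2 from Msi2 -/- and 2 from control mice, grouped by sample title. The authors deposited whole-number read counts for each gene symbol, without normalization. Per the submitters' processing notes, the tools included Trimmomatic, STAR, HTSeq and DESeq, with no version given, on mm9. Annotation and strand setting are not stated. The last 5 rows name no gene, hold between 19.1% and 20.1% of a library's counts, and were left out.

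In R 4.3.3, edgeR 4.0.16 tested the 13215 genes kept by filterByExpr (minimum count 10, minimum total 15), with TMM scaling, a quasi-likelihood model of group, 2-sided tests and Benjamini-Hochberg adjustment over all genes tested. The SE comes from the F statistic. DESeq2 1.42.0, limma-voom (limma 3.58.1), edgeR's likelihood ratio test, other scalings and filters, the replicate number as a block, and each library left out were alternatives. Both count models were first tested on simulated data. Replicates differed by a chi-square per gene of 144 (Msi2 -/-) and 59.2 (control). Each library was counted as 1 sample, and the chi-square cannot tell whether a library stands for 1 mouse.

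The members, lists and tests were chosen with earlier results of these data known. All members are named. Full values are given for the 3 of smallest p per role, and for up to 4 other pathway genes per direction. Chromosomes, promoters and exon lengths come from RefSeq (GRCm38.p6) and GENCODE M21, while the counts are on mm9. Shared sequence was counted in stretches of 50 bases.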

Additional observations from a re-analysis of the deposited data

How the results depend on the processing

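No member passed an adjusted p of 0.05 under RLE or upper-quartile scaling, other filters, limma-voom or edgeR's likelihood ratio test. None passed a threshold of 0.1 in the main quasi-likelihood fit, the only fit in which that threshold was tried. In the likelihood ratio test Psph and Aprt each had an adjusted p of 0.0808. DESeq2 called 1 member higher and 1 lower. Over all genes edgeR called 0 higher and 1 lower, DESeq2 414 and 362, the likelihood ratio test 120 and 192, limma-voom 0 and 0, and edgeR with no filter 0 and 6. Without Msi2 -/- replicate 1 these counts were 4 and 8, and without replicate 2 they were 23 and 83. The other pathway genes had 0 calls, 7 by DESeq2, 1 by the likelihood ratio test, and 0 to 1 with a library left out, the 1 being Aldh1l1 in both cases. The members' median was between -0.12 and -0.026 with a library left out. With the replicate number as a block 0 members were called and the median was -0.058. Same-numbered libraries had deviations that correlated at 0.039 over genes, so no shared deviation by replicate number was seen. This cannot tell whether the libraries were paired in handling.

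Of the 41 members 25 kept their sign whichever library was left out. The log2 fold changes of the other 16 crossed 0. The range was -0.14 to 0.15 for Mthfd1, -0.024 to 0.070 for Hprt, -0.086 to 0.12 for Nme2, -0.051 to 0.12 for Atic, -0.42 to 0.055 for Impdh1 and -0.31 to 0.13 for Tk1. It was -0.13 to 0.019 for Prps1, -0.20 to 0.030 for Ppat, -0.11 to 0.045 for Impdh2, -0.016 to 0.21 for Adss, -0.12 to 0.022 for Ctps and -0.063 to 0.26 for Ctps2. It was -0.051 to 0.26 for Dck, -0.21 to 0.12 for Dctpp1, -0.29 to 0.0014 for Paics and -0.15 to 0.076 for Dut. Upper-quartile scaling moved Hprt, Mthfd1 and Nme2 to -0.0022, -0.011 and -0.0082. The cause was not tested. Counts per member were at least 3275 in every library, and the part of counting error was not tested.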
